A study of Mus musculus with 6 samples.

Results

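The small heat shock proteins and the inducible targets of heat shock factor 1 (HSF1) were followed as 10 genes picked by symbol: the small heat shock proteins Hspb1, Hspb2, Hspb6, Hspb7, Hspb8 and Cryab, the inducible HSP70 genes Hspa1a and Hspa1b, and their cochaperones Dnajb1 and Bag3. All 10 were among the 18197 gene symbols of the count table. All but Hspb7 had enough counts to enter the test, 9 of 16543 genes. The table holds RNA-seq counts of cancer-associated fibroblasts, the stromal cells that make and remodel the matrix of a tumour, which were sorted by FACS from mammary tumours of PyMT mice on the C57BL/6 strain. PyMT is the polyoma middle T oncogene, which drives these tumours in both groups, and tumours were taken after 16 to 20 weeks. There were 3 libraries labelled WT, and 3 with the label mPGES-1 KO, called KO-labelled from here on, which by genotype lack the inducible synthase of prostaglandin E2. No other factor separates them in the labels, which give neither the promoter behind the oncogene, nor the kind of knockout allele, nor the gate of the sort. Whether the 3 libraries of a group are separate animals is not stated, so a p-value here sets differences against the scatter of these libraries alone, and that scatter may be technical.

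Small heat shock proteins bind unfolding proteins without using ATP and keep them in a form that other chaperones can refold. Several, among them Hspb2, Hspb6, Hspb7 and Cryab, are abundant in muscle, while Hspb1 is made in many cell types. HSP70 refolds the held proteins with ATP, J proteins such as Dnajb1 deliver them to it, and Bag3 is an exchange factor of HSP70 that, with Hspb8, sends damaged filament proteins to autophagy. HSF1 switches on many of these genes when unfolded protein accumulates, by binding as a trimer to arrays of alternating GAA and TTC units.

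Hspb2 fell in the KO-labelled libraries, to a mean 18.0-fold below that of the WT-labelled ones. Its neighbour Cryab had a mean 3.43-fold lower and Hspb1 a mean 2.22-fold higher, and both missed the threshold, an adjusted p under 0.05. The inducible HSP70 pair, Bag3, Hspb6 and Hspb8 overlapped between the groups. In all, 1 of the 9 tested genes was called lower and 0 higher by edgeR, while of all tested genes 1.56% were called lower, 1.2% higher and 2.76% either way. An unadjusted p under 0.05 was reached by 4 of the 9, against 19.1% of all tested genes. Groups stood apart without overlap in 4 of the 9, 2 lower and 2 higher, against 27.9% of all tested genes. The genes were chosen with earlier results of these data known, so these shares are no test of enrichment. Over all genes, calls numbered 456, and leaving out WT replicate 2, KO replicate 2 or KO replicate 3 left 1 (Rasl12), 0 and 0, so every call named here ended when any of these libraries was left out. The median log2 fold change was 0.23 over the 9 and -0.04 over all tested genes.

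Directions rest on the labels. Ptges, the gene of mPGES-1, stood at 26.3 ± 6.49 CPM (counts-per-million on scaled library totals, mean ± SD, n = 3) in WT-labelled libraries and rose to 150.3 ± 31.1 CPM in KO-labelled ones (log2 fold change 2.51 ± 0.31, SE; adjusted p = 0.0171 by edgeR), where a lost transcript would be lower. A gene's total count cannot show whether part of the gene is deleted, so this level checks neither the deletion nor which group carries it. Library totals ran from 37432510 to 43648450 counts in WT-labelled and from 23013498 to 37249186 in KO-labelled libraries. Depth thus did not overlap between the groups, though KO replicate 3 was close to WT replicate 2. The 9 fibroblast markers measured, of which Dcn and Col3a1 were the most abundant, took 0.961% to 2.58% of counts in WT-labelled and 0.647% to 1.72% in KO-labelled libraries, and none was at 0 in any library. Of these, 0 were called higher and 1 lower, Thy1, which fell from 213 ± 54.8 to 22.9 ± 11.8 CPM (adjusted p = 0.0184 by edgeR), and Col1a1, at 3897 ± 2765 and 688 ± 453 CPM, stood apart downward without passing (adjusted p = 0.1003). Both were singled out after their values were seen. Thy1 did not pass without WT replicate 2, KO replicate 2 or KO replicate 3 (adjusted p = 0.0801, 0.0926 and 0.0814 by edgeR) or with a replicate block (0.0884). Summed markers of 3 other cell types stood apart. The 12 pericyte and vascular smooth muscle markers took 0.294% to 0.846% and 0.0228% to 0.0415%, with 7 called lower, 0 higher and none at 0 in any library. The 11 luminal epithelial markers took 0.711% to 1.31% and 3.27% to 5.002%, with 5 called higher, 0 lower and none at 0 in any library. The 5 Schwann cell markers took 0.00792% to 0.0110% and 0.0214% to 0.0262%, with 0 called and none at 0 in any library. In bulk libraries fewer cells of a type and less RNA per cell cannot be told apart.

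Upstream sequences are shown for the genes whose windows held a possible HSF1 array before the start site, and because those of the HSP70 copies are nearly the same. RefSeq windows from 250 bases before to 50 bases after a start site, on GRCm38.p6, were matched by symbol to 8 of the 10 genes (not Hspb2 and Cryab), 10 windows in all. The motifs searched were GAANNTTC and TTCNNGAA, each made of 2 units and its own reverse complement, and the same alternation extended to 3 units, which contains both. A match of 2 units was in 6 of the 10 windows, while 15.06% of all 32851 windows in the table held one. The windows of Hspa1a and Hspa1b are near copies, and the genes were picked partly as targets of HSF1. These shares are therefore no test of enrichment. None of the 10 windows held 3 units, as 0.6% of all windows did. The 250 bases before the start site are written 5′ to 3′ on the strand of the gene, with matches in capitals.
Hspa1a, chr17:34972157-34972406, minus strand: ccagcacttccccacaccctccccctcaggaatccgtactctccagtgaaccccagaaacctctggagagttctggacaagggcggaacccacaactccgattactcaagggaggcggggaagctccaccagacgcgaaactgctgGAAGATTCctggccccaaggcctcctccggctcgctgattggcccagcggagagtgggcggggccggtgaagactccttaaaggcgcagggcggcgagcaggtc
Hspa1b, chr17:34959239-34959488, minus strand: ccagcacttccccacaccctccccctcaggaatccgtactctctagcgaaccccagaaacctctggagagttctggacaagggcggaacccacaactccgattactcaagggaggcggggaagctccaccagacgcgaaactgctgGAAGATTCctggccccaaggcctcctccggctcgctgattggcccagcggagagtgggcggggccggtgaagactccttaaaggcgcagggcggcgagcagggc
Hspb1, chr5:135887669-135887918, plus strand: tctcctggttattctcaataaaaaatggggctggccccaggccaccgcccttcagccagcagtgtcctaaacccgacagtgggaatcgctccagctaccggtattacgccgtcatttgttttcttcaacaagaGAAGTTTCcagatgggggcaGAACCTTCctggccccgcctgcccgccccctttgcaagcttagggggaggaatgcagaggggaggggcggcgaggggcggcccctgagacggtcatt
Hspb6 (downstream start site), chr7:30553051-30553300, plus strand: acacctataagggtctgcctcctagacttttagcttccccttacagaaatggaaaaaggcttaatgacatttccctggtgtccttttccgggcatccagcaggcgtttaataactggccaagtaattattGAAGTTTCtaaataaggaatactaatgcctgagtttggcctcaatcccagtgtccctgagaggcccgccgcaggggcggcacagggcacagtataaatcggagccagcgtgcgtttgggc

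Windows of Hspa1a and Hspa1b were identical at 296 of 300 bases. Counted from 1 at the 5′ end of the window and read from Hspa1a to Hspa1b, the substitutions were C44T, T47C, T249G and C276T, and the match spans bases 147 to 154 in both. In the Hspb1 window the matches began 117 and 97 bases before the start site, and in that of Hspb6 120 bases before it. Bag3 and Hspb8 each held 1 match in the transcribed part, beginning 42 and 2 bases after the start site. Windows of Hspb7, Dnajb1 and the upstream start of Hspb6 held none. A match describes letters and is not a binding site, and its absence from this window says nothing about the factor.

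Hspb2, a small heat shock protein that binds the kinase DMPK in muscle, stood at 30.7, 78.1 and 25.3 CPM in WT-labelled replicates 1 to 3 and at 2.34, 0.922 and 4.19 CPM in KO-labelled replicates 1 to 3. Its lowest WT-labelled library was far above its highest KO-labelled one, and WT replicate 2 stood above the rest of its group. Means were 44.7 ± 29.0 and 2.48 ± 1.64 CPM (SD, n = 3), with a log2 fold change of -4.16 ± 0.74 (SE; adjusted p = 0.0341, edgeR quasi-likelihood test). The KO-labelled values rest on 64, 22 and 148 reads. Leaving out WT replicate 2 ended the call (log2 fold change -3.44, adjusted p = 0.157 by edgeR), as did leaving out WT replicate 3 (0.0608) or KO replicate 1, 2 or 3 (0.0981, 0.119 and 0.0800). Its fold change was negative in all 13 alternatives, from -4.87 to -3.44, with adjusted p values from 1.70e-07 to 0.157.

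Cryab, alpha B-crystallin, which chaperones desmin and other intermediate filaments, was at 425, 503 and 261 CPM in the WT-labelled replicates and at 129.8, 51.8 and 165 CPM in the KO-labelled ones. The groups again did not overlap, and KO replicate 2 was lowest for both Cryab and Hspb2. Means of 396 ± 124 and 116 ± 58.2 CPM gave a log2 fold change of -1.78 ± 0.46 (SE) that did not pass with edgeR (adjusted p = 0.0901). DESeq2 and limma-voom with quality weights called it (adjusted p = 0.00478 and 0.0225, in a range up to 0.274 over 13 alternatives).

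**Figure D1:**
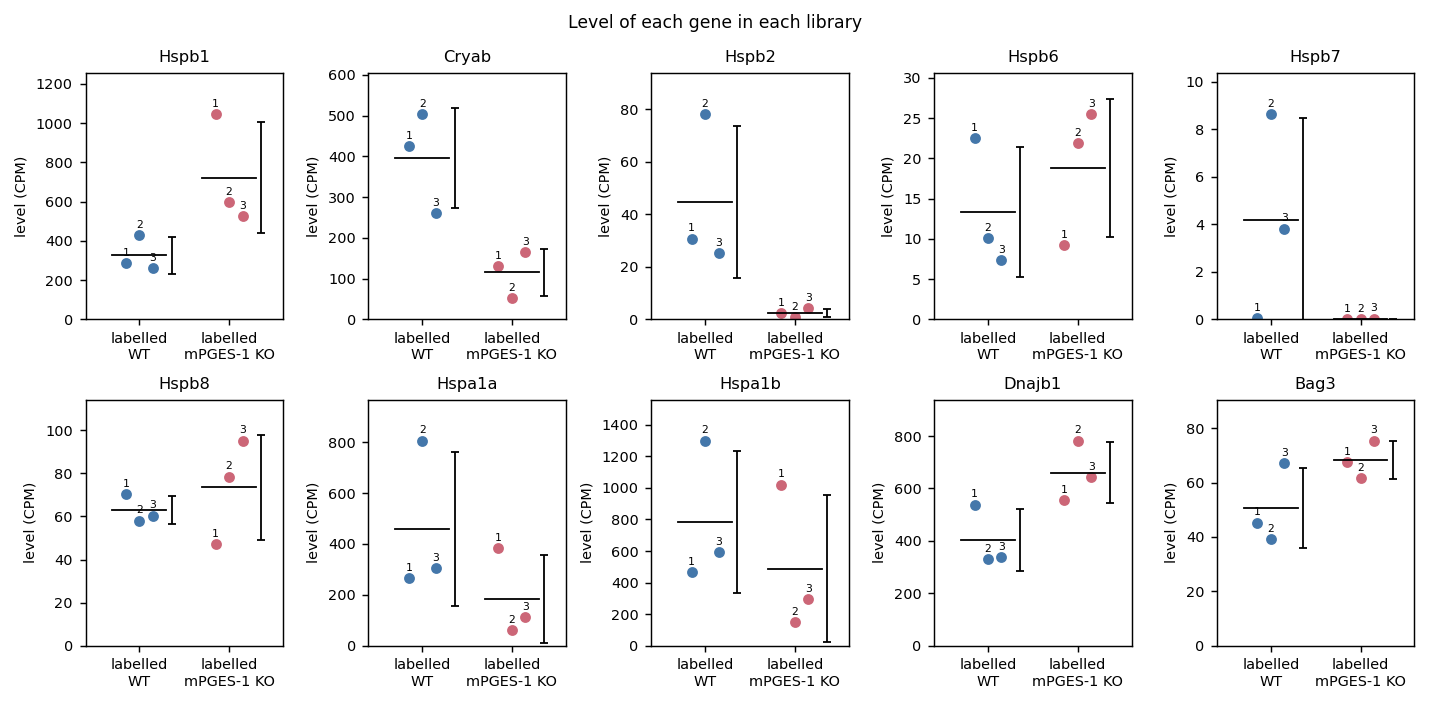
Level of each of the 10 genes in CPM (vertical axis, linear, from 0) in the 3 WT-labelled and the 3 KO-labelled libraries; points carry the replicate number, horizontal lines are means and bars the SD, cut at 0. Hspb2 and Cryab are lower in every KO-labelled library than in any WT-labelled one, and Hspb1 and Dnajb1 are higher. The groups overlap for Hspb6, Hspb8, Hspa1a, Hspa1b and Bag3. Hspb7 is lower too, but WT replicate 1, with 2 reads, and KO replicate 3, with 1, are both below the floor of 3 counts.

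Hspb2 and Cryab lie next to each other on opposite strands, and their annotations overlap. In GENCODE M21 on GRCm38, Hspb2 spans 50751078 to 50752354 of chromosome 9 (minus strand, 2 exonic blocks) and Cryab 50751325 to 50756636 (plus strand, 5 exonic blocks). They share 252 exonic bases, 30.2% of those of Hspb2 and 17% of those of Cryab. In RefSeq the span of Cryab, 50745951 to 50756636, holds all of that of Hspb2, 50751072 to 50752354, and shared exonic bases were not computed there. The library kits named in the labels do not mark the strand, so reads of the shared bases cannot be assigned to either gene. Both counts are uncertain, to an extent that depends on the annotation used for counting, which is not given. For each read of Cryab there were 0.0724, 0.155 and 0.0969 reads of Hspb2 in the WT-labelled replicates and 0.0180, 0.0178 and 0.0253 in the KO-labelled ones. Means of this ratio were 0.108 ± 0.0425 and 0.0204 ± 0.00427 (SD, n = 3) without overlap (exact permutation test, two-sided p = 0.1, the smallest that 3 against 3 allow). Relative to Cryab, then, the count of Hspb2 was lower in every KO-labelled library.

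Hspb7, a small heat shock protein of heart and skeletal muscle, had 2, 343 and 139 reads in the WT-labelled replicates and 0, 0 and 1 in the KO-labelled ones. WT-labelled libraries were themselves far apart, at 0.0455, 8.63 and 3.82 CPM, and WT replicate 1 was below the floor of 3 counts, 0.0683 CPM there. Summed over groups, 484 reads stood against 1, a ratio of 349 after scaling for library size with a 95% counting interval of 62.3 to 13799.6. That interval treats each read as an independent molecule, which PCR copies without molecular identifiers are not, and leaves out the spread between libraries. WT replicate 2 alone held 343 of the 484 reads. Fitted with no filter on low counts, Hspb7 did not pass (adjusted p = 0.126 by edgeR).

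Hspb1, known as HSP25 in the mouse, which caps actin filaments, ran the other way, at 286, 431 and 259.7 CPM in the WT-labelled replicates and at 1045, 595 and 525 CPM in the KO-labelled ones. The groups did not overlap, and KO replicate 1 stood well above the rest. Means were 325 ± 92.0 and 722 ± 282 CPM (SD, n = 3), and the log2 fold change of 1.15 ± 0.36 (SE) did not pass with edgeR (adjusted p = 0.134). DESeq2 called it (adjusted p = 0.0233, in a range up to 0.329 over 13 alternatives). Hspb1 spans 135887919 to 135889563 of chromosome 5, plus strand. Of the 1030 distinct stretches of 75 bases, the read length, in its annotated transcripts, 46.4% also occur in the pseudogene Hsp25-ps1, so its count depends on how reads with several matches were treated. For each read of Hspb1 there were 1.48, 1.17 and 1.01 reads of Cryab in the WT-labelled replicates and 0.124, 0.0869 and 0.315 in the KO-labelled ones. Cryab thus had at least as many reads as Hspb1 in every WT-labelled library and fewer in every KO-labelled one (exact permutation test, two-sided p = 0.1, the smallest possible).

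Hspb6, the small heat shock protein that protein kinase A phosphorylates in smooth muscle, was at 22.5, 10.1 and 7.41 CPM in the WT-labelled replicates and at 9.18, 21.9 and 25.5 CPM in the KO-labelled ones. Both groups spanned nearly the same range, with a log2 fold change of 0.50 ± 0.62 (SE; adjusted p = 0.737 by edgeR; normal 95% interval -0.71 to 1.71). Without WT replicate 1, the highest of its group, the log2 fold change was 1.13 (adjusted p = 0.347 by edgeR). Its exons overlap those of Proser3 on the opposite strand over 5.3% of its bases. Hspb8, the partner of Bag3, was at 70.3, 58.1 and 60.4 CPM in the WT-labelled replicates and at 47.1, 78.5 and 95.2 CPM in the KO-labelled ones. Its WT-labelled values lay close together inside the KO-labelled range (log2 fold change 0.23 ± 0.32, SE; adjusted p = 0.777 by edgeR), and the normal 95% interval of -0.40 to 0.86 allows a change either way.

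**Figure D2:**
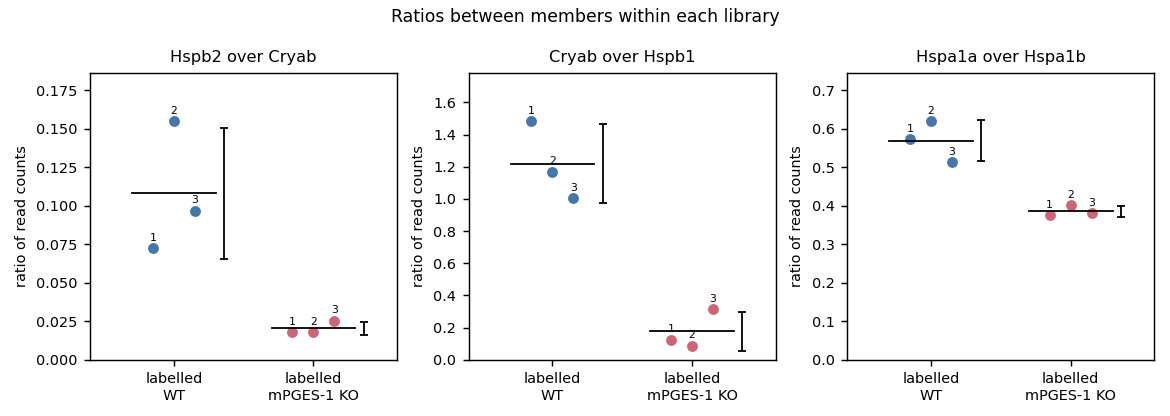
Ratio of read counts between 2 of the genes within each library (vertical axis, linear, from 0), for Hspb2 over Cryab, Cryab over Hspb1 and Hspa1a over Hspa1b, with the replicate number at each point, the mean as a line and the SD as a bar (n = 3 per group). In all 3 panels every KO-labelled library lies below every WT-labelled one.

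Levels of the inducible HSP70 genes were spread widely within each group. Hspa1a was at 266, 806 and 304 CPM in the WT-labelled replicates and at 383, 60.4 and 112 CPM in the KO-labelled ones. Hspa1b was at 464, 1300.4 and 593 CPM in the former and at 1021, 150.3 and 293 CPM in the latter. Both were highest in WT replicate 2 and lowest in KO replicate 2, and KO replicate 1 was above 2 of the WT-labelled libraries. Among KO-labelled libraries the highest was 6.34-fold above the lowest for Hspa1a and 6.80-fold for Hspa1b, and among WT-labelled ones 3.03-fold and 2.80-fold. Log2 fold changes were -1.31 ± 0.72 (SE; adjusted p = 0.390 by edgeR; normal 95% interval -2.73 to 0.11) for Hspa1a and -0.69 ± 0.71 (adjusted p = 0.677; interval -2.08 to 0.70) for Hspa1b. Single libraries moved these values in both directions without a call: Hspa1a and Hspa1b were at -2.41 and -1.82 without KO replicate 1, at -0.57 and -0.06 without WT replicate 2, and at -0.87 and -0.23 without KO replicate 2.

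Hspa1a and Hspa1b are single-exon copies on chromosome 17, both on the minus strand, spanning 34969190 to 34972156 and 34956436 to 34959238 with 9951 bases between them. Of the distinct 75-base stretches in their transcripts, 52.7% of those of Hspa1a and 55.8% of those of Hspa1b occur in the other copy as well, so the division of reads between them is uncertain. Hspa1a also shares 19% of its exonic bases with Gm20481 on the opposite strand. Added together before the fit, the copies had a log2 fold change of -0.89 ± 0.72 (SE; adjusted p = 0.576 by edgeR). For each read of Hspa1b there were 0.574, 0.620 and 0.513 reads of Hspa1a in the WT-labelled replicates and 0.375, 0.402 and 0.381 in the KO-labelled ones. This ratio was narrow within each group where the levels were not, with means of 0.569 ± 0.0536 and 0.386 ± 0.0140 (SD, n = 3) and no overlap (exact permutation test, two-sided p = 0.1, the smallest possible).

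Dnajb1, the J protein known as HSP40, was at 538, 332 and 337 CPM in the WT-labelled replicates and at 554, 783 and 645 CPM in the KO-labelled ones. The groups did not overlap, though WT replicate 1 and KO replicate 1 were close. Its log2 fold change of 0.72 ± 0.30 (SE) did not pass with edgeR (adjusted p = 0.247), and limma-voom with quality weights called it (adjusted p = 0.0296, in a range up to 0.497 over 13 alternatives). KO replicate 2, with the least Hspa1a and Hspa1b, held the most Dnajb1, and WT replicate 2, with the most Hspa1a and Hspa1b, held the least. For each read of Dnajb1 there were 3.92 reads of Hspa1b in WT replicate 2 and 0.192 in KO replicate 2. The other libraries lay between these values, and the groups overlapped (exact permutation test, two-sided p = 0.3).

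Bag3 was at 45.2, 39.3 and 67.2 CPM in the WT-labelled replicates and at 67.6, 61.6 and 75.5 CPM in the KO-labelled ones. WT replicate 3 lay inside the KO-labelled range and the rest of its group below it (log2 fold change 0.43 ± 0.30, SE; adjusted p = 0.512 by edgeR; normal 95% interval -0.16 to 1.03). None of the 75-base stretches of Dnajb1, Bag3, Hspb7 or Hspb8 occurred in another annotated gene. In GRCm38, Dnajb1 lies on chromosome 8 from 83608193 to 83612653, Bag3 on chromosome 7 from 128523616 to 128546981, Hspb6 on chromosome 7 from 30552178 to 30555443 and Hspb7 on chromosome 4 from 141420779 to 141425311, all on the plus strand, and Hspb8 on chromosome 5, minus strand, from 116408491 to 116422864.

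Between genes, levels were compared as RPKM, which is CPM over exonic length in kilobases. In WT-labelled libraries the order of mean levels was Hspb1 (316 ± 89.3 RPKM, SD, n = 3), Hspa1b (280.3 ± 161), Cryab (268 ± 83.5), Hspa1a (155 ± 102), Dnajb1 (126 ± 36.7), Hspb2 (53.6 ± 34.8), Hspb8 (32.3 ± 3.33), Bag3 (19.7 ± 5.74), Hspb6 (5.80 ± 3.51) and Hspb7 (1.504 ± 1.55). Neighbours from Hspb1 down to Dnajb1 overlapped between libraries, as did Hspb2 and Hspb8, and every other step was clear of overlap. In KO-labelled libraries the order was Hspb1 (699.9 ± 274 RPKM), Dnajb1 (206 ± 35.9), Hspa1b (174 ± 167), Cryab (78.2 ± 39.3), Hspa1a (62.3 ± 58.4), Hspb8 (37.8 ± 12.5), Bag3 (26.6 ± 2.71), Hspb6 (8.20 ± 3.73), Hspb2 (2.98 ± 1.97) and Hspb7 (0.00341 ± 0.00590). Here Hspb1 stood clear of Dnajb1, neighbours from Dnajb1 down to Bag3 overlapped, and so did Hspb6 and Hspb2. Among all 17664 genes with a known length, the RPKM percentile of Hspb1 ran from 98.4 to 99.4 in WT-labelled and from 99.4 to 99.8 in KO-labelled libraries. That of Hspb2 ran from 89.1 to 96.2 in the former and from 37.8 to 63.1 in the latter. Together the 10 genes took 0.260 ± 0.104% of counts in WT-labelled and 0.230 ± 0.0777% in KO-labelled libraries (SD, n = 3; exact permutation test, two-sided p = 0.6).

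Other genes of the heat shock system were followed in 7 lists of chaperones, cochaperones and heat shock factors. Of their 44 tested genes, 1 was called higher, 0 lower and 43 were not called, against 1.2% and 1.56% of all tested genes. The called gene was Dnajb4, a J protein related to Dnajb1, which rose from 74.2 ± 11.9 to 175 ± 19.3 CPM (log2 fold change 1.24 ± 0.25, SE; adjusted p = 0.0462 by edgeR) and was called in 6 of 13 alternatives. Groups stood apart in 14 genes upward and 7 downward, against 12.2% and 15.7% of all tested genes. As the lists were chosen with earlier results of these data known, these shares do not test enrichment. Of 3 heat shock factor genes and the modulator Hsbp1, none was called. Hsf1 was at 57.9 ± 24.7 CPM in WT-labelled and 56.8 ± 13.5 CPM in KO-labelled libraries (adjusted p = 0.982 by edgeR), and the sign of its log2 fold change of -0.03 turned in 7 of 13 alternatives, the DESeq2 size factors among them. Hsf2, which can pair with HSF1, was at 6.62 ± 2.58 and 7.06 ± 3.91 CPM. Hsf4, the factor of the lens, was at 1.75 ± 1.54 and 0.967 ± 1.14 CPM, and Hsbp1, a small protein that binds HSF1, at 501 ± 89.7 and 361 ± 64.2 CPM (adjusted p = 0.968, 0.888 and 0.401 by edgeR).

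Of 9 other HSP70 and HSP110 genes tested, 7 had a positive log2 fold change and 0 were called, with a median of 1.09. Hspa8, the constitutive HSP70, was at 523 ± 161 CPM in WT-labelled and 1113 ± 97.2 CPM in KO-labelled libraries (log2 fold change 1.09 ± 0.30, SE; adjusted p = 0.1003 by edgeR). Hspa4, an exchange factor of the HSP110 type, was at 73.6 ± 18.5 and 169.7 ± 29.0 CPM (adjusted p = 0.0757 by edgeR). Hsph1, also of that type and singled out after its values were seen, was at 24.4 ± 7.26 and 72.6 ± 35.1 CPM (adjusted p = 0.103 by edgeR). These 3 stood apart upward. Hspa12a and Hspa12b, distant relatives of HSP70 also singled out after their values were seen, stood apart downward, at 18.0 ± 4.11 and 3.82 ± 2.69 CPM and at 4.59 ± 1.04 and 1.06 ± 1.00 CPM (adjusted p = 0.1498 and 0.473 by edgeR). Hspa13 and Hspa14 overlapped (log2 fold changes 0.82 and 0.65), and without WT replicate 1 their values were 1.57 and 1.30 (adjusted p = 0.0436 and 0.0783 by edgeR), so that Hspa13 passed. Limma-voom also called Hspa13 (adjusted p = 0.0288, in a range up to 0.685 over 13 alternatives).

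Of 8 cytosolic J proteins besides Dnajb1, 7 had a positive log2 fold change, with a median of 0.67. Dnajb5, the negative one, was at 14.4 ± 8.30 CPM in WT-labelled and 1.92 ± 1.24 CPM in KO-labelled libraries. It stood apart downward (log2 fold change -2.90, adjusted p = 0.141 by edgeR) and was singled out after its values were seen. Beside Dnajb4, Dnaja1 was at 147 ± 29.0 and 236 ± 11.3 CPM (adjusted p = 0.184 by edgeR), and Dnaja2 and Dnajc7 differed on the log2 scale by 0.89 and 0.20 (adjusted p = 0.254 and 0.787). Of 10 genes of the HSP90 machinery 7 were positive and 0 called, with a median of 0.17. Hsp90aa1, the inducible HSP90, was at 148 ± 29.2 and 363 ± 89.0 CPM, and its constitutive counterpart Hsp90ab1 at 892 ± 101 and 1351 ± 117 CPM (adjusted p = 0.0625 and 0.252 by edgeR). Both stood apart upward, while Cdc37 and Fkbp4, which serve HSP90 as cochaperones, overlapped (log2 fold changes -0.17 and 0.12). Fkbp5, also singled out after its values were seen, stood apart downward, at 41.3 ± 19.6 and 11.4 ± 7.41 CPM (adjusted p = 0.146 by edgeR). Of 4 mitochondrial chaperones 0 were called, with a median of 0.59. Hspd1, the matrix chaperonin, was at 82.8 ± 18.4 and 175 ± 17.7 CPM (adjusted p = 0.0738 by edgeR), Hspa9, the mitochondrial HSP70, differed by 0.91 on the log2 scale (adjusted p = 0.198), and Hspe1 and Trap1 had -0.12 and 0.27.

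The 8 BAG proteins and HSP70 cochaperones besides Bag3 split into 4 positive and 4 negative, with 0 called and a median of 0.00. Bag1 and St13 had log2 fold changes of -0.07 and 0.06, and Stub1, the ubiquitin ligase CHIP, and Hspbp1 had -1.04 and -0.91 (adjusted p = 0.193 and 0.148 by edgeR). Jmjd8 on the opposite strand shares 42.3% of the exonic bases of Stub1. Hspb11, which despite its name works in ciliary transport, was at 25.7 ± 3.53 and 13.7 ± 0.590 CPM (adjusted p = 0.242 by edgeR), and Hspb3, at 0 in 4 of 6 libraries, was not tested.

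**Figure D3:**
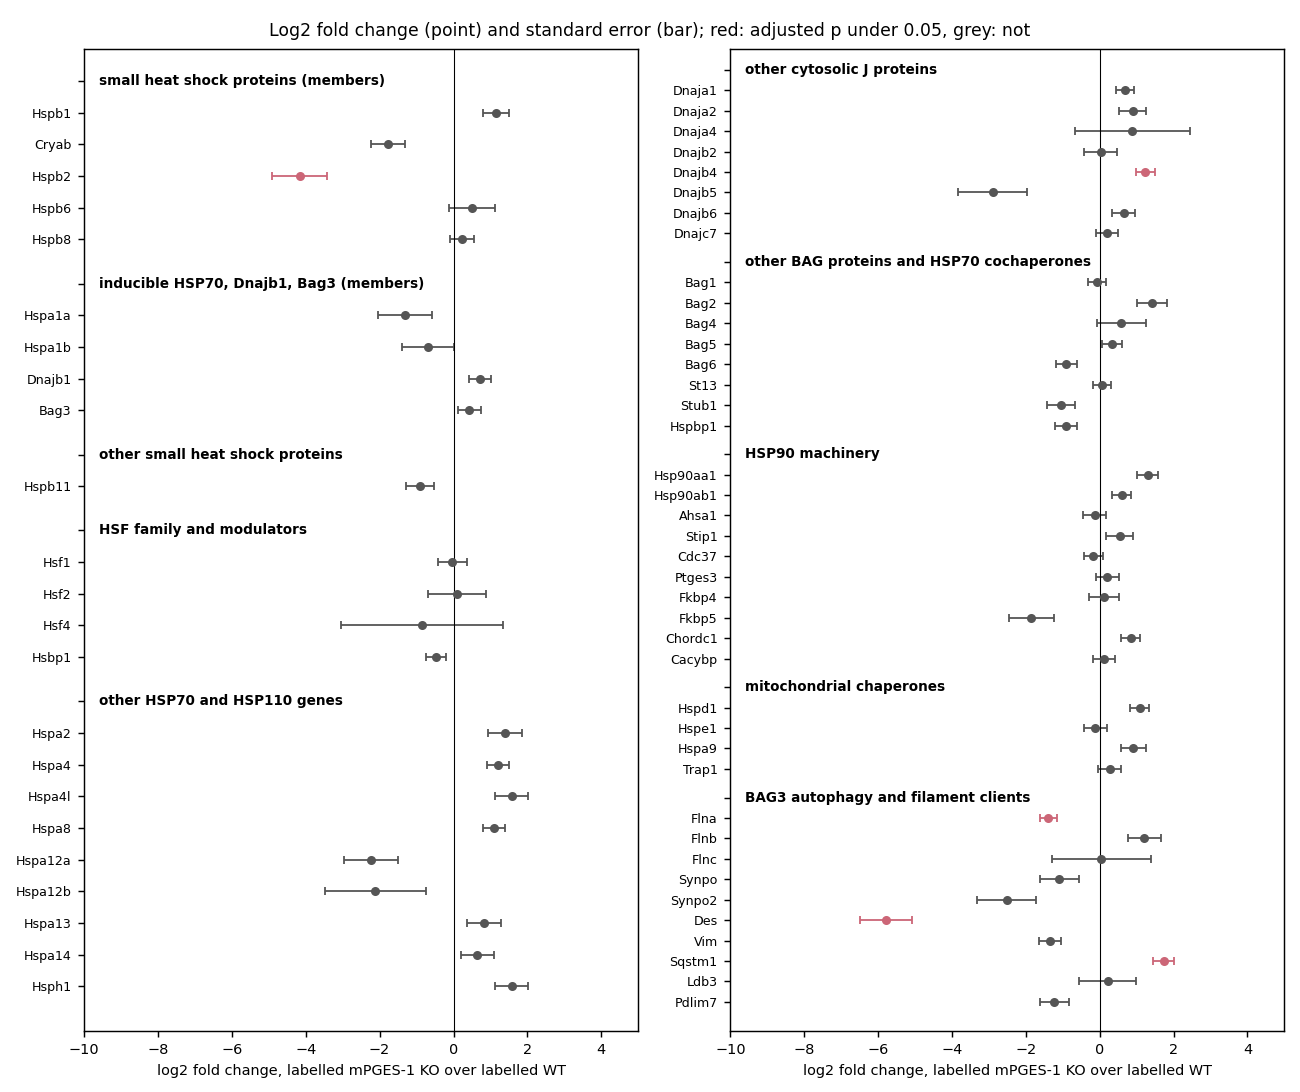
Log2 fold change of the libraries labelled mPGES-1 KO over those labelled WT (horizontal axis; positive is higher in mPGES-1 KO) with its standard error, for the 9 tested members and for genes of 8 related lists, red where the adjusted p was under 0.05. Hspb2, Flna and Des are red to the left of 0, Dnajb4 and Sqstm1 red to the right, and the others are grey.

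Filament proteins and autophagy partners of Bag3 and Cryab held 3 calls among 10 tested genes, 2 lower and 1 higher, against 1.56% and 1.2% of all tested genes, and their median was -1.16. This list too was chosen with earlier results of these data known, so the shares are no test of enrichment. Des, the desmin that Cryab chaperones, fell from 266 ± 137 to 4.82 ± 3.00 CPM (log2 fold change -5.79 ± 0.70, SE; adjusted p = 0.0171 by edgeR), and Gm15179 on the opposite strand shares 5.9% of its exonic bases. Flna, the filamin of non-muscle cells, fell from 255 ± 19.9 to 96.8 ± 9.69 CPM (log2 fold change -1.39 ± 0.23; adjusted p = 0.0286 by edgeR). Sqstm1, the autophagy receptor p62, rose from 555 ± 103 to 1842 ± 356 CPM (log2 fold change 1.73 ± 0.29; adjusted p = 0.0296 by edgeR), and Mrnip on the opposite strand shares 17.3% of its exonic bases. Vim, the vimentin of mesenchymal cells, was at 978 ± 135 and 383 ± 101 CPM and did not pass (adjusted p = 0.0589 by edgeR). Des, Flna and Sqstm1 kept their directions in all 13 alternatives and were called in 9, 7 and 7 of them.

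Of 12 pericyte and smooth muscle markers, 11 had a negative log2 fold change, as Hspb2 and Cryab did, and 7 were called lower. Cnn1 had a positive one, at 7.92 ± 7.09 CPM in WT-labelled and 11.5 ± 9.20 CPM in KO-labelled libraries. Cnn1 and Myh11 overlapped between the groups (adjusted p = 0.880 and 0.288 by edgeR). Among WT-labelled libraries, Cryab, Hspb2, Des and the marker sum were all highest in replicate 2 and lowest in replicate 3, and the sums in replicates 1 to 3 were 0.631%, 0.846% and 0.294% of counts. Hspb7 did not keep that order, being lowest in replicate 1. Of the 12 markers, Myh11, Cnn1, Tagln and Notch3 were likewise lowest in WT replicate 1 and highest in WT replicate 2. The others were lowest in WT replicate 3. Myh11 was at 1.73, 51.3 and 32.8 CPM and Tagln at 7.90, 25.6 and 16.3 CPM in WT-labelled replicates 1 to 3. Among KO-labelled libraries the sums were 0.0415%, 0.0228% and 0.0384%, and only part of the order was shared: replicate 2, with the lowest sum, held the least Cryab and Hspb2, but both were highest in replicate 3 and not in replicate 1, which had the highest sum. Des, at 1.61, 5.28 and 7.56 CPM, was lowest in replicate 1. Rgs5 and Acta2, the most abundant of these markers, fell from 1554 ± 717 to 87.4 ± 35.2 CPM and from 1120.2 ± 598 to 125 ± 62.4 CPM (adjusted p = 0.0171 and 0.0345 by edgeR). The part of these cells in the values of Hspb2, Hspb7 and Cryab was not tested.

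Skeletal muscle, which makes much Hspb2, Hspb7 and Cryab, had 6 markers in the table, with 0 called and Pvalb at 0 in a KO-labelled library. All 6 had a negative log2 fold change, with a median of -1.17. Their sums in WT-labelled replicates 1 to 3 were 6.35e-04%, 0.00410% and 0.00236% of counts, lowest and highest in the same replicates as Hspb7. In KO-labelled libraries they took 0.00101% to 0.00146%, so the groups overlapped. The part of skeletal muscle in these genes was not tested. The 6 basal epithelial markers overlapped as well, at 0.00462% to 0.0148% and 0.00962% to 0.0217%, with Oxtr and Cdh3 at 0 in some libraries. Hspb1, Dnajb1 and the luminal sums were higher in the same group, but not always in the same libraries within it. The luminal sums were 1.31%, 0.711% and 0.830% in WT-labelled replicates 1 to 3, where replicate 2, with the lowest, held the most Hspb1. They were 5.002%, 3.61% and 3.27% in KO-labelled ones, where replicate 1, with the highest, held the most Hspb1 and the least Dnajb1. Csn3, the most abundant luminal marker, weighed most in these sums, at 32217, 16656 and 18793 CPM in KO-labelled replicates 1 to 3. Krt8, Krt18, Cldn3 and Cldn4 were also highest in KO replicate 1. Epcam, Krt19, Cdh1, Elf3 and Cldn7 were highest in KO replicate 2, which held the most Dnajb1, and Elf5 in KO replicate 3. In WT-labelled libraries Krt8, Krt18 and Krt19 were lowest in replicate 1, Cdh1 and Cldn3 in replicate 3, and the others in replicate 2. The part of luminal cells in these genes was not tested.

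**Figure D4:**
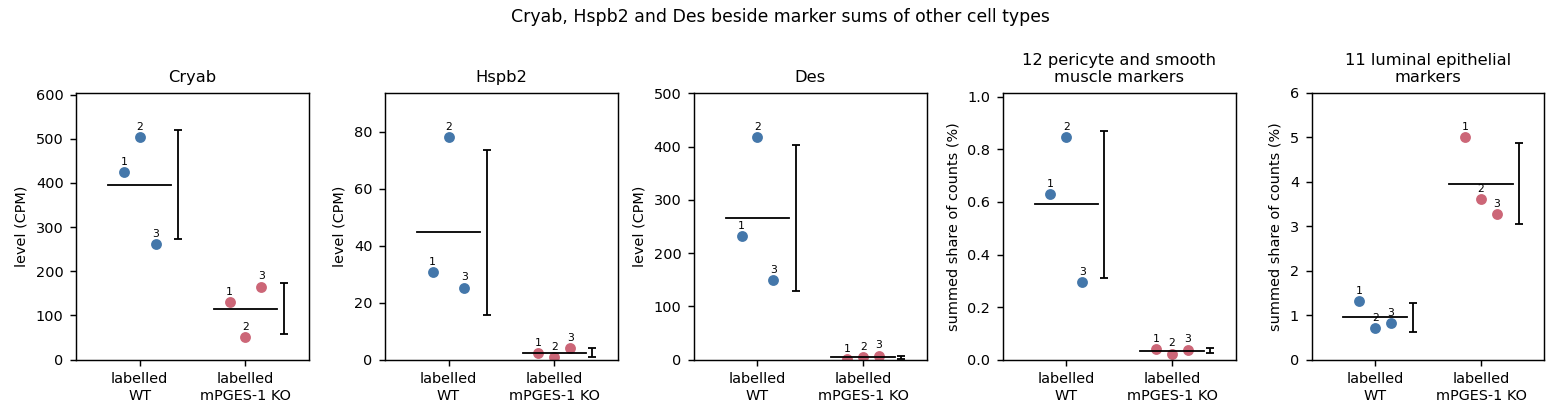
Cryab, Hspb2 and Des (CPM) beside the summed share of counts (%) of 12 pericyte and smooth muscle markers and of 11 luminal epithelial markers in each library (vertical axes linear, from 0), with the replicate number at each point, the mean as a line and the SD as a bar (n = 3 per group). The first 4 panels are lower and the last is higher in every KO-labelled library than in any WT-labelled one.

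Early response genes, which like Hspa1a and Hspa1b can be switched on while a tissue is taken apart, gave 2 calls higher and 1 lower among 13 tested, against 1.2% and 1.56% of all tested genes, with a median log2 fold change of -0.09. Enrichment is not tested by these shares, because the list was chosen with earlier results of these data known. The transcription factor gene Atf3 rose from 531 ± 201 to 4027 ± 306 CPM, Ier3 rose from 683 ± 169.7 to 4286 ± 1192 CPM, and Socs3, an inhibitor of cytokine signalling, fell from 819 ± 118 to 200.3 ± 60.0 CPM (adjusted p = 0.0177, 0.0177 and 0.0247 by edgeR). Fos, the most abundant of the list over all libraries, was at 6378 ± 853 and 6006 ± 1349 CPM (adjusted p = 0.921 by edgeR). The part of tissue handling in the spread of Hspa1a and Hspa1b was not tested.

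Among 11338 tested genes averaging 5 CPM or more, those most like Cryab in log2(CPM + 1) over the 6 libraries were Phox2a, Nkd2 and Cers4, with Pearson r of 0.996, 0.995 and 0.993. Among those most like Dnajb1 were Gdpd1 and Rap1b, with r of 0.999 and 0.998. These describe 6 points in 2 groups, which share library depth and the overall difference between the groups.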

How the data were processed

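Counts of 6 RNA-seq libraries were analysed. Per the labels' protocols, cDNA of the sorted cells came from an ultra-low input kit, was amplified by 16 PCR cycles and was read over 75 bases, with no mark of strand or molecule described. The deposited values are raw counts per gene symbol, not normalized by the authors. FastQC 0.11.5, STAR and mm10 stand in the submitters' processing notes. Which program and annotation produced the counts, and how reads with several matches were treated, is not given in the sources used here.

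All rows were fitted in R 4.3.3 with edgeR 4.0.16: filterByExpr by genotype, TMM scaling and a robust quasi-likelihood test over all 6 libraries without covariates, two-sided, with Benjamini-Hochberg adjustment over 16543 genes and a threshold of 0.05. SE is the absolute log2 fold change over the square root of F. Positions, lengths and shared stretches come from GENCODE M21 (GRCm38, the assembly that mm10 also names), upstream sequences from RefSeq. A floor of 3 counts was 0.0683 to 0.126 CPM by library. The fit was tested on simulated data. Spread between libraries was wide (common biological coefficient of variation 0.818).

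Members, gene lists and alternatives were chosen with earlier results of these data known. Named were all members, Ptges, all HSF genes tested, of every list the called genes and then the most abundant up to 4, the most abundant markers, and the 3 genes most like Cryab and Dnajb1, of which 1 is not reported here. Alternatives were other scalings (DESeq2 size factors, library size), no filter, a filter of 1 CPM in 3 libraries, DESeq2 1.42.0, limma-voom with quality weights (limma 3.58.1), a block on replicate number, leaving out single libraries, an adjusted p under 0.1, and summed HSP70 copies.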

Additional observations from a re-analysis of the deposited data

How the results depend on the processing

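Genes called numbered 456, against 2235 with DESeq2's Wald test, 1944 with limma-voom, 1113 at an adjusted p under 0.1 and 0 with the replicate block. They ranged from 0 (without KO replicate 2 or 3) to 568 (without WT replicate 1), with 1 without WT replicate 2, 150 without WT replicate 3 and 160 without KO replicate 1. Members called lower numbered 3 with DESeq2 (Hspb2, Cryab, Hspb7), 2 at an adjusted p under 0.1 and 0 with the replicate block, and ranged from 0 to 1 when single libraries were left out, with 1 kept only without WT replicate 1. With limma-voom the member called lower was Cryab, not Hspb2 (adjusted p = 0.0587). Members called higher numbered 0, and 1 with DESeq2 (Hspb1) and with limma-voom (Dnajb1). The causes were not tested. Same-numbered libraries of the groups did not deviate together over all tested genes (r = -0.063, 0.028 and -0.017), so no pairing by number was seen. A weak pairing, or one confined to some genes, could be missed this way. With the replicate block the log2 fold change of Hspb2 was -4.14 (adjusted p = 0.139 by edgeR).

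Of 652 single-gene values under alternatives, 542 kept direction and side of the threshold, 62 lost a call, 27 gained one and 21 reversed. Leaving out single libraries, Hspb8 ranged from -0.00194 to 0.47, reversed without KO replicate 3. Hsf1 reversed to 0.0149 with DESeq2 size factors, 0.00208 with the 1 CPM filter, 0.0162 with DESeq2's test and 0.0322 with the replicate block, and ranged from -0.31 to 0.38 without single libraries. Hsf2 reversed to -0.10 with limma-voom and ranged from -0.37 to 0.48. Also without single libraries, Bag1 ranged from -0.13 to 0.0812, St13 from -0.0122 to 0.17, Cdc37 from -0.26 to 0.0173, Fkbp4 from -0.25 to 0.50, Hspe1 from -0.30 to 0.13 and Fos from -0.28 to 0.0358. No other gene followed under the alternatives reversed, and no scaling turned a member's direction. Scaling with DESeq2 size factors or library size moved the median gene from -0.04 to 0.0079 and -0.07. Depth limits Hspb7, with 0 to 1 reads in KO-labelled libraries. Hspb7 was below the filter, so its alternatives are given only where a fit kept it.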
